A study of Canis lupus familiaris with 12 samples.

Results

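Tetraspanins are small membrane proteins that cross the lipid bilayer repeatedly and expose a cysteine-rich loop to the outside of the cell. They bind one another and a set of partners, among them integrins, immunoglobulin-type adhesion proteins and the sheddase ADAM10, and so gather these into membrane microdomains. In epithelia they are known for their part in adhesion, in the sorting and maturation of their partners and in the release of extracellular vesicles. The members described here are the probe sets annotated with a single gene whose symbol starts with TSPAN and a number, or with one of 10 further symbols of the family: CD9, CD37, CD53, CD63, CD81, CD82, CD151, UPK1A, UPK1B and PRPH2. These were 57 of 42924 probe sets and 30 of 15115 genes, and the rule is written on gene symbols, not on measured values.

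Gene expression was measured on 12 Affymetrix arrays for the dog. The cells were MDCK II tet-off cells, a dog kidney tubule line kept under G418 that carries the tetracycline-controlled transactivator. In 6 arrays (2D, the control) the cells had formed flat sheets in type I collagen culture, and in the other 6 (3D) they had formed multicellular cysts in type I collagen. Both kinds of culture received the same medium with serum, ran to day 8 and were released from the collagen with collagenase, and each array received RNA pooled from 4 samples. All arrays therefore share 1 line, and p-values measure the spread between pools, which leaves out that between single cultures. In such bulk RNA, fewer cells of a type and less RNA per cell cannot be told apart.

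Values are log2(intensity + 1), and a difference is 3D minus 2D on that scale. A gene with several probe sets is represented by the one with the highest mean over the 12 arrays, and it passed the test where limma's adjusted p, over all 42924 probe sets, was under 0.05. The background of each array was the 95th percentile of 59 control probe sets for sequences that match no dog gene, and averaged 5.76 in 2D and 5.66 in 3D. Of the 30 tetraspanin genes, 26 lay above it on all 12 arrays, and CD37 and TSPAN18 lay at or below it on all 12. For 11 of the 30 the representing probe set carries a suffix that marks possible hybridisation with several transcripts. Among them are CD9, CD63, CD81, TSPAN8, TSPAN14 and PRPH2.

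Among the tetraspanins, 8 genes differed clearly between cysts and flat sheets. TSPAN15, UPK1B, TSPAN9, TSPAN8, CD81 and CD9 rose in 3D by at least 0.5, and TSPAN1 and TSPAN33 fell by at least that much. In all, 9 of the 30 genes were higher in 3D (30%, against 19.8% of all genes), 6 were lower (20%, against 22.9%) and 15 did not pass. The count in either direction, 15 genes or 50%, stood beside 42.7% of all genes. Changes of at least 0.5 were found in 8 tetraspanins (26.7%), whereas 7.75% of all genes passed at that size. Of all genes, 6.12% rose by at least 0.5 and 1.63% fell by at least 0.5, and the tetraspanins held 6 and 2 such genes. The 6 values in 2D and the 6 in 3D did not overlap for 13 tetraspanins (43.3%), compared with 22.6% of all genes. The median difference over the 30 genes, -0.04, lay close to the median of -0.05 over all genes.

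**Figure D1:**
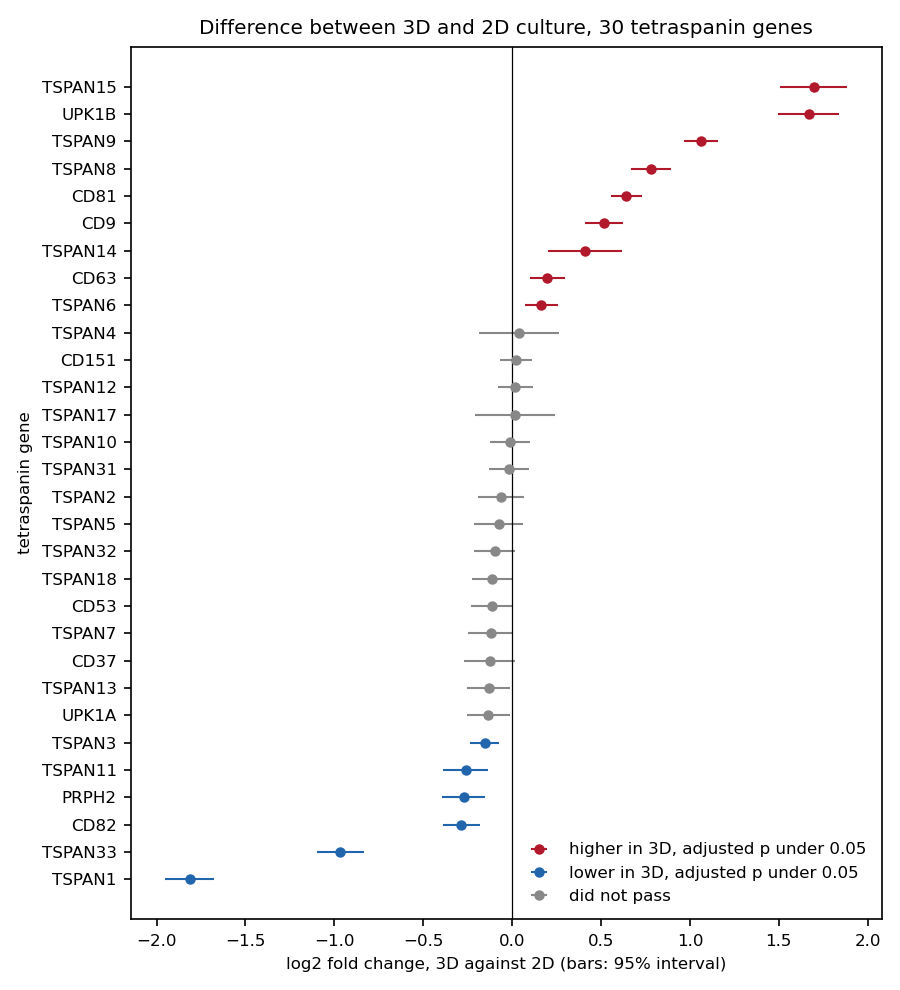
Log2 fold change of each of the 30 tetraspanin genes, 3D against 2D (x axis, with 95% confidence intervals from the limma fit), ordered by size and coloured by whether the gene passed. TSPAN15, UPK1B and TSPAN9 lie above 1 and TSPAN1 lies at -1.81, while the 15 genes that did not pass lie near 0.

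TSPAN1, a tetraspanin of secretory and other epithelia, fell the most. Its 2D values ran from 11.43 to 11.75 with a median of 11.55, and its 3D values from 9.59 to 9.89 with a median of 9.76. Every cyst array thus lay far below every flat-sheet array. The difference was -1.81 (SE 0.06, limma adjusted p = 5.29e-12), or a 3.52-fold lower intensity in 3D. The other TSPAN1 probe set gave -1.84. By size of change TSPAN1 ranked 80 of 15115 genes.

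TSPAN33 belongs to the TspanC8 group, the tetraspanins that bind the metalloprotease ADAM10 and take it from the endoplasmic reticulum to the cell surface. Its 2D values ran from 7.64 to 7.83 with a median of 7.78, against 6.63 to 6.94 with a median of 6.81 in 3D. It fell by 0.97 (SE 0.06, limma adjusted p = 4.58e-09) with no overlap between the groups.

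TSPAN15, another TspanC8 member, moved the other way and rose the most of all tetraspanins. The 2D values ran from 6.11 to 6.66 with a median of 6.59, and those in 3D from 7.92 to 8.30 with a median of 8.24. The difference was 1.70 (SE 0.09, limma adjusted p = 5.05e-10), or 3.24-fold. It ranked 103 of 15115 by size of change. The lowest value in each group stood apart from the other 5, at 6.11 in 2D replicate 1 and at 7.92 in 3D replicate 2, and the groups still lay more than 1 apart.

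The other 4 TspanC8 genes changed less or did not pass. TSPAN14 rose by 0.41 (SE 0.10, limma adjusted p = 0.00402) on a probe set close to background, and its groups overlapped. That probe set can hybridise with several transcripts, and TSPAN14 has no other. Its 3D values lay between 6.11 and 6.51 on 5 arrays and at 5.89 on 3D replicate 2, inside the 2D range of 5.73 to 6.02. TSPAN5 differed by -0.08 (limma adjusted p = 0.368), TSPAN10 by -0.01 (0.864) and TSPAN17 by 0.02 (0.916). One 2D array set the TSPAN17 value: it lay at 9.93 in replicate 6 and between 9.13 and 9.28 in the other 5 of that group. Without that array TSPAN17 differed by 0.14 (limma adjusted p = 0.0350), and its other probe set rose by 0.30 (0.00943).

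ADAM10 itself, the protease that the TspanC8 proteins carry, differed little: its values ran from 11.71 to 11.94 in 2D and from 11.91 to 12.05 in 3D, so that the groups overlapped. The difference was 0.13 (SE 0.05, limma adjusted p = 0.0434), a call that was lost under 15 of 26 other settings. Of 10 measured genes of a list of ADAM10 and shed proteins, 2 rose and 1 fell (30%, against 42.7% of all genes), with a median of -0.01. CDH1, the epithelial cadherin that ADAM10 can cleave, rose by 1.02, and NOTCH3, a Notch receptor, fell by 0.20. NOTCH3 was near background, above it on 5 arrays of 2D and 2 of 3D, and its call was lost under 11 of 24 other settings, with an adjusted p of up to 0.783. With the RNA control ratio described further on as a covariate, the CDH1 difference was 0.15 (limma adjusted p = 0.576).

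UPK1B is a uroplakin, a tetraspanin that pairs with single-span uroplakins in the apical plaques of the bladder lining. Its 2D values ran from 9.40 to 9.97 with a median of 9.51, and its 3D values from 11.10 to 11.37 with a median of 11.23. The 3.18-fold difference of 1.67 (SE 0.08, limma adjusted p = 2.26e-10) ranked 107 of 15115. The groups did not overlap. UPK1A, the other tetraspanin uroplakin, lay near background and differed by -0.14 (limma adjusted p = 0.0720). PRPH2, a tetraspanin of photoreceptor outer segments, was also near background and fell by 0.27 (limma adjusted p = 0.00138), while its other probe set differed by -0.02 (0.845).

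Of the single-span uroplakins, UPK3B, a partner of UPK1B, rose by 0.67, with 6.78 to 7.06 in 2D and 7.45 to 7.79 in 3D. UPK2, which pairs with UPK1A, fell by 0.20, a call that was lost under 11 of 26 other settings with an adjusted p of up to 0.288. UPK3A was at or below background on all 12 arrays. KRT20, a keratin of the bladder's surface cells, was likewise at or below background throughout.

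TSPAN9, best known from platelets and megakaryocytes, had a high signal in both cultures. Its 2D values ran from 10.62 to 10.75 with a median of 10.73, against 11.64 to 11.83 with a median of 11.79 in 3D. It rose by 1.06 (SE 0.05, limma adjusted p = 4.63e-11), or 2.09-fold, and the groups were widely separated. A dim probe set of the same gene, at or below background, rose by 0.24.

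TSPAN8, an epithelial tetraspanin that is abundant in several carcinomas and in vesicles shed by cells, rose as well. The 2D arrays lay at 12.35 to 12.53 with a median of 12.40, and the 3D arrays at 13.02 to 13.29 with a median of 13.23. The difference was 0.78 (SE 0.05, limma adjusted p = 1.09e-08) on 1 probe set and 0.76 on the other, with no overlap between groups.

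**Figure D2:**
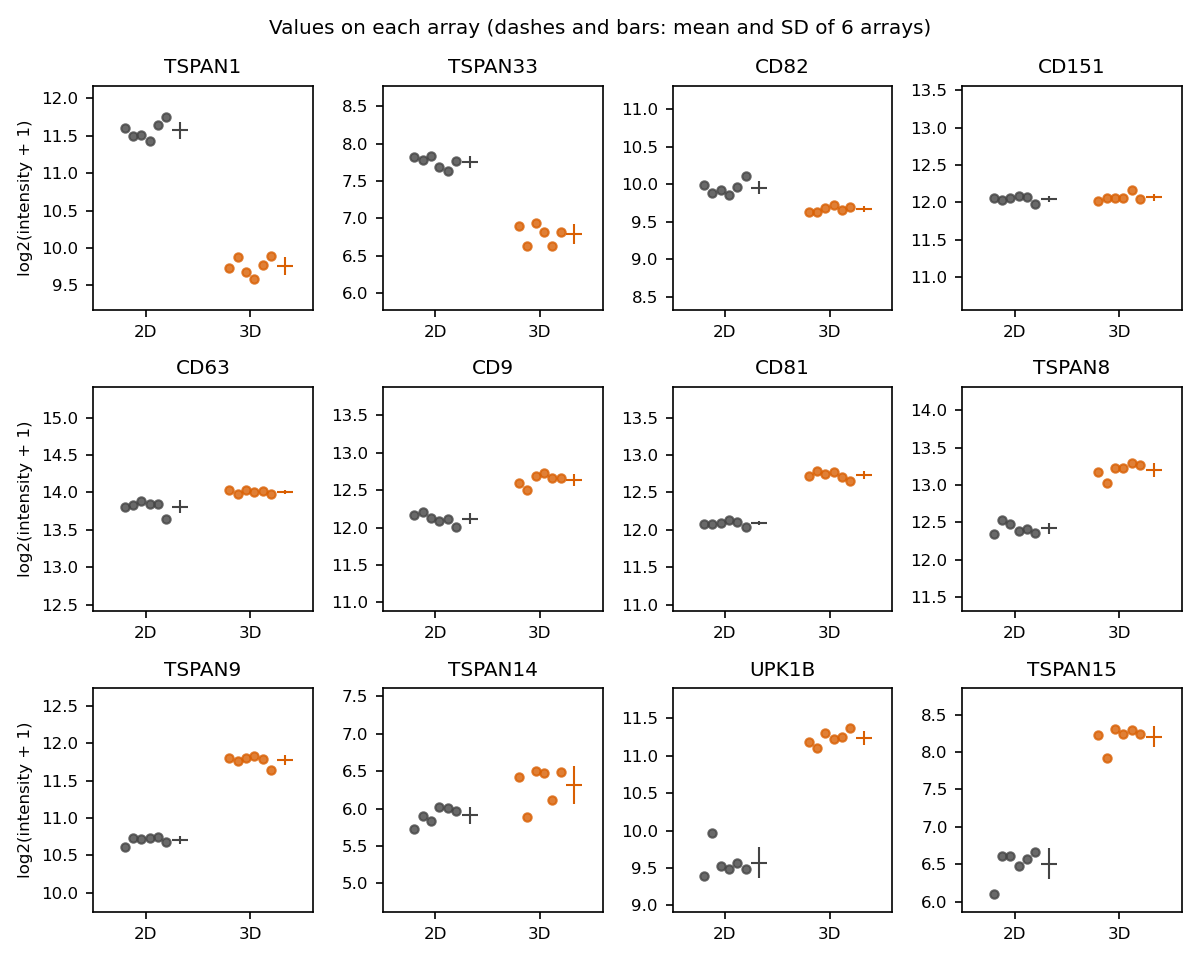
Log2(intensity + 1) on each array for 12 tetraspanins, 2D and 3D side by side, each point 1 array, each dash a group mean and each bar its SD (n = 6 arrays). All panels span the same number of log2 units, and the 2D and 3D points overlap only in CD151 and TSPAN14 among these genes.

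The tetraspanins with CD names are the best studied as organisers of integrins and as vesicle markers. Of these 7 genes, 3 rose, 1 fell and 3 did not pass, so that 57.1% passed, against 42.7% of all genes. CD81, a partner of immunoglobulin-type proteins, ran from 12.04 to 12.13 with a median of 12.09 in 2D. In 3D it ran from 12.65 to 12.79 with a median of 12.73. It rose by 0.64 (SE 0.04, limma adjusted p = 4.96e-09), and its other probe set rose by 0.63.

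CD9, which binds integrins and the immunoglobulin-type protein PTGFRN and has a known part in cell fusion, ran from 12.01 to 12.22 with a median of 12.12 in 2D. Its 3D values were 12.50 to 12.73 with a median of 12.66. The groups did not overlap and CD9 rose by 0.52 (SE 0.05, limma adjusted p = 6.64e-07). The size depended on the probe set: another bright CD9 probe set rose by 0.22 (0.00791), and a dim one differed by -0.12 and did not pass. The probe set with the larger change carries a suffix that marks possible hybridisation with several transcripts.

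CD63, a tetraspanin of late endosomes, lysosomes and exosomes, ran from 13.65 to 13.88 with a median of 13.84 in 2D and from 13.98 to 14.03 with a median of 14.01 in 3D. Its groups did not overlap. It rose by 0.20 (SE 0.05, limma adjusted p = 0.00332).

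CD82, also called KAI1 and known as a suppressor of metastasis, ran from 9.86 to 10.11 with a median of 9.94 in 2D and from 9.63 to 9.72 with a median of 9.67 in 3D. It was the CD-named tetraspanin that fell, by 0.29 (SE 0.05, limma adjusted p = 0.000242), with no overlap. Its other probe set differed by -0.03 (0.783).

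CD151 binds the laminin receptors ITGA3 and ITGA6 directly and is needed in the kidney for a normal glomerular basement membrane. Its 2D values, 11.98 to 12.08 with a median of 12.05, overlapped its 3D values, 12.01 to 12.16 with a median of 12.06. The difference was 0.02 (95% confidence interval -0.07 to 0.11, limma adjusted p = 0.699). A dimmer CD151 probe set rose by 0.17 (0.0189). CD37 and CD53, tetraspanins of leukocytes, lay at or close to background and did not pass.

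Among the remaining members, small changes were found in 3 further genes. TSPAN6, which restrains antiviral signalling, rose by 0.16 (limma adjusted p = 0.00850). TSPAN3, a broadly expressed tetraspanin, fell by 0.16 (0.00504), and TSPAN11 fell by 0.26 (0.00272). The 9 that did not pass were TSPAN2, TSPAN4, TSPAN7, TSPAN12, TSPAN13, TSPAN18, TSPAN31, TSPAN32 and UPK1A. TSPAN12, a co-receptor for Norrin on Frizzled receptors, had a clear signal in both cultures and differed by 0.02 (95% confidence interval -0.08 to 0.12). TSPAN31 likewise differed by -0.02 (-0.13 to 0.09). TSPAN4, a tetraspanin of migrasomes, varied more between arrays, from 8.85 to 9.50, and differed by 0.04 (-0.19 to 0.27).

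Several tetraspanin genes lie side by side in the dog genome, and not all neighbours moved alike. By RefSeq's annotation of the UU_Cfam_GSD_1.0 assembly, 0 protein-coding genes separate TSPAN9, which rose, from TSPAN11, which fell. The same holds for CD81, which rose, and TSPAN32, which differed by -0.10 (limma adjusted p = 0.158), and for CD82, which fell, and TSPAN18, which was at background. CD151 and TSPAN4, with 1 gene between them, differed by 0.02 and 0.04.

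Every probe set was counted as well. Of the 57 tetraspanin probe sets, 17 rose, 9 fell and 31 did not pass. Of all 42924 probe sets, 16.7% rose and 22.0% fell. The 26 of 57 that changed either way stood beside 38.7% of all 42924. No gene had probe sets that passed in opposite directions, among the 21 genes with several. Of the 57, 12 probe sets were at or below background on all 12 arrays. TSPAN1, TSPAN8 and CD81 each had a pair of bright probe sets that differed by less than 0.03, while those of CD9, CD82 and TSPAN17 did not give the same size or the same call. TSPAN6 rose on 1 bright probe set and differed by 0.10 (limma adjusted p = 0.0775) on the other. A probe set of TSPAN13 at background rose by 0.21 (0.0407), and one of TSPAN5 at background fell by 0.13 (0.0420), while the brighter probe sets of these genes did not pass.

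**Figure D3:**
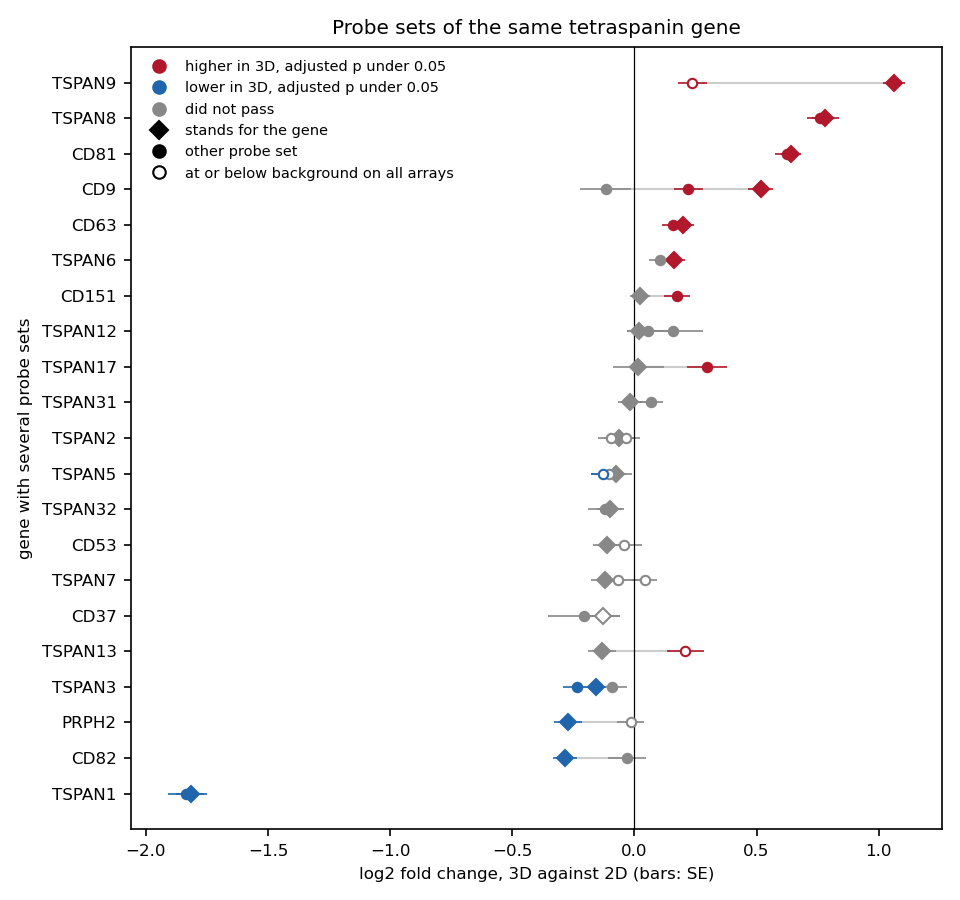
Log2 fold change (x axis, bars SE) of every probe set of the 21 tetraspanin genes (y axis) with several, with diamonds for the probe set that stands for the gene and open symbols for those at or below background on all arrays. The TSPAN1, TSPAN8 and CD81 pairs nearly coincide, whereas CD9 ranges from -0.12 to 0.52.

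The integrins, the main adhesion receptors held in tetraspanin microdomains, were mostly higher in 3D. Of 12 measured genes 10 rose (83.3%, against 19.8% of all genes), 0 fell, and the median difference was 0.61. ITGA3, the laminin receptor subunit bound by CD151, rose by 1.06 from 8.68 ± 0.06 to 9.74 ± 0.16 (SD, n = 6 arrays). ITGA2, a collagen receptor subunit, rose by 0.79, ITGB4 of hemidesmosomes by 0.77 and ITGAV by 0.74. ITGA6 rose by 0.72, on a probe set that can hybridise with several transcripts, and by 2.20 on one without that suffix. ITGB1, the common beta subunit, rose by 0.39 with overlapping groups, and differed by 0.02 (limma adjusted p = 0.905) with the RNA control ratio as a covariate.

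Of 12 measured immunoglobulin-type and other adhesion partners, 7 rose (58.3%, against 19.8% of all genes), 0 fell and the median was 0.45. The hyaluronan receptor CD44 rose by 1.48, ICAM1 by 1.16, the tight junction protein CLDN1, a partner of CD9 and CD81, by 1.07, and PTGFRN by 0.66. IGSF8, the other main immunoglobulin-type partner of CD9 and CD81, is not analysed here.

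Lists of signalling and trafficking partners were divided. Among 15 growth factor and signalling genes 2 rose (EGFR by 0.59, and HBEGF, the CD9-bound growth factor precursor, by 0.36). The HBEGF call was lost with the RNA control ratio as a covariate (limma adjusted p = 0.101). Another 2 passed as lower: TGFBR2 by 0.27, and the kinase PRKCA by 0.22. Of the list, 26.7% thus passed, against 42.7% of all genes. The PRKCA call was lost under 14 of 26 other settings, with an adjusted p of up to 0.818. That of TGFBR2 was lost with the mean of its probe sets, where it differed by -0.13 (limma adjusted p = 0.0770). Of 17 vesicle and endosome genes 5 rose and 3 fell (47.1%, near the 42.7% of all genes), with RAB27A, which docks multivesicular bodies at the plasma membrane, rising by 0.98, CHMP4B by 0.50, FLOT2 by 0.46 and RAB11A by 0.31. SDCBP, the gene of syntenin that binds CD63, is not analysed here. Tetraspanins are palmitoylated, and of 21 measured palmitoyltransferases 9 rose and 2 fell (52.4%), the largest being ZDHHC3 by 0.71, ZDHHC7 by 0.64, ZDHHC20 by 0.64 and ZDHHC12 by 0.43. The ZDHHC20 difference was 0.05 (limma adjusted p = 0.774) with the RNA control ratio as a covariate. In the L6 family, which resembles tetraspanins without being related to them, 60% of 5 measured genes passed, against 42.7% of all genes. TM4SF1 rose by 1.24, and TM4SF5 and TM4SF20 fell by 0.29 and 0.15. The TM4SF20 call was lost under 13 of 25 other settings, with an adjusted p of up to 0.775. TM4SF5, near background, had an adjusted p of 0.0521 with the RNA control ratio as a covariate.

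**Figure D4:**
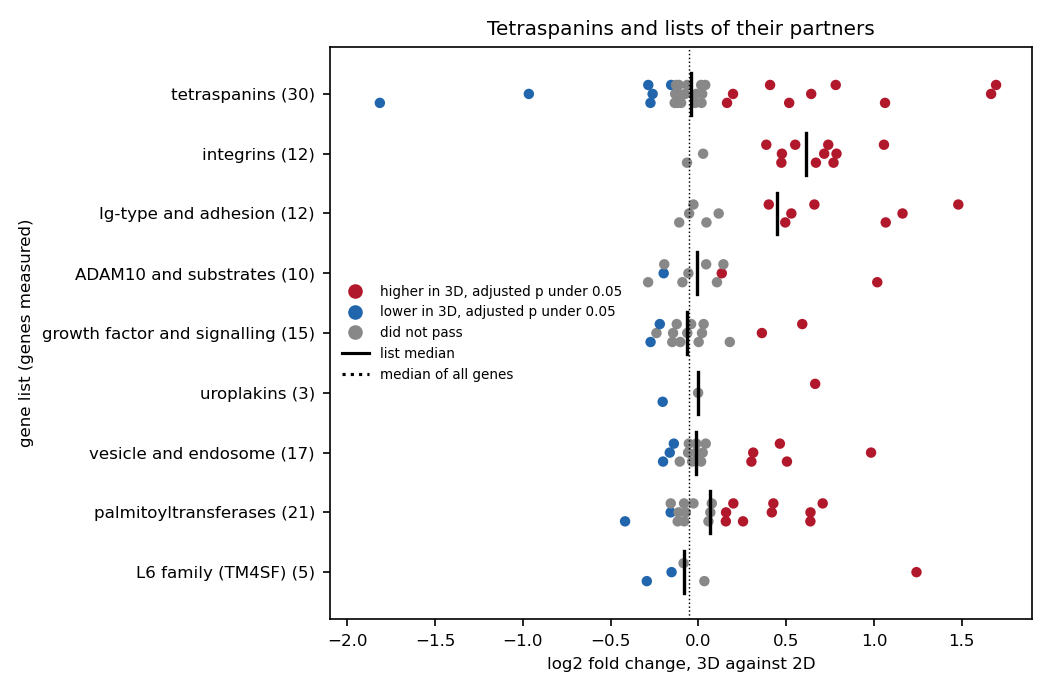
Log2 fold change, 3D against 2D, of each measured gene (point) of the tetraspanins and of 8 lists of partners and related genes, with list medians and the median of all genes. The medians of integrins (0.61) and adhesion partners (0.45) lie to the right, whereas those of the other lists lie between -0.08 and 0.07.

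The RNA control ratio, the mean log2 ratio of 5-prime to 3-prime signal over 4 actin and GAPDH control pairs, is a sign of RNA and labelling quality and differed between the groups. It was -0.91 ± 0.14 in 2D and -0.54 ± 0.17 in 3D (SD, n = 6 arrays; exact two-sided permutation p = 0.00866). With the ratio as a covariate, 6 tetraspanins rose and 3 fell, and 20.9% of all genes passed. The 6 were TSPAN15, UPK1B, TSPAN9, TSPAN8, CD81 and CD9, and the 3 were TSPAN1 at -1.71, TSPAN33 at -1.16 and CD82 at -0.30 (limma adjusted p = 0.0163). CD9 was at 0.39 (0.00108), and its other bright probe set, at 0.25 (0.0855), did not pass. Nor did the other CD82 probe set, at -0.23 (0.169), or the dim TSPAN9 probe set, at 0.17 (0.242). The other probe sets of TSPAN1, TSPAN8 and CD81 passed. TSPAN14 then differed by 0.21 (limma adjusted p = 0.397), CD63 by 0.16 (0.166) and TSPAN6 by 0.175 (0.112). TSPAN3 differed by -0.14 (0.162), TSPAN11 by -0.29 (0.0514) and PRPH2 by -0.20 (0.144). Each SE was larger than in the fit with the group alone, at 0.07 against 0.04 for TSPAN6. Another bright TSPAN3 probe set passed with the covariate, at -0.42 (0.000757). The part of RNA quality in the 6 differences that no longer passed was not tested beyond this.

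**Figure D5:**
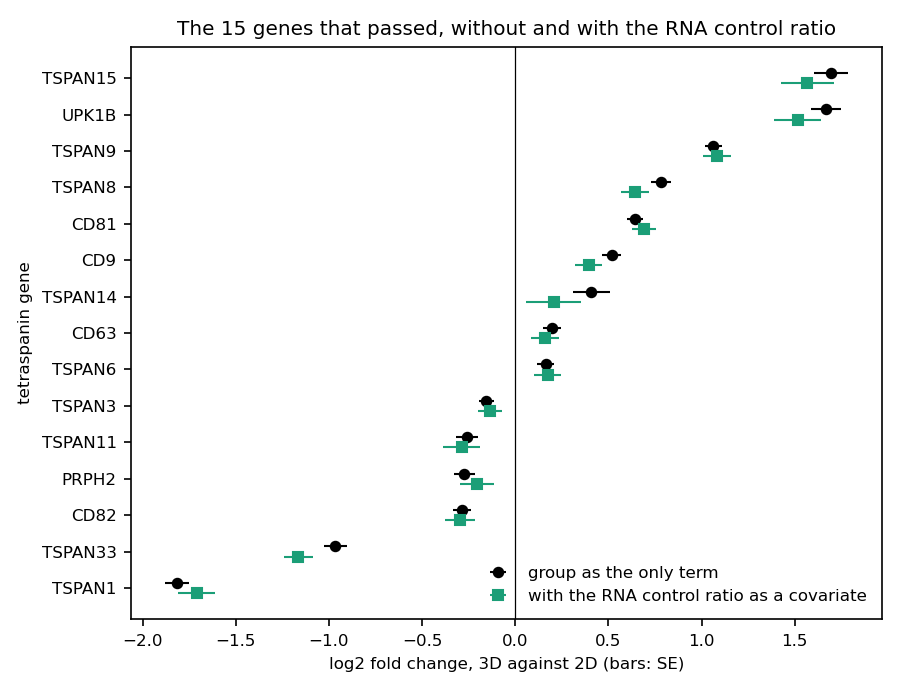
Log2 fold change, 3D against 2D (x axis, bars SE), of the 15 tetraspanins that passed, from the fit with the group alone (circles) and with the RNA control ratio as a covariate (squares). All 15 genes stay on their side of 0, though not all pass with the covariate, and the TSPAN14 value falls from 0.41 to 0.21.

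Markers of other cell types were set beside these results. All 7 measured epithelial markers lay above background on all arrays. Summed intensity over the measured markers was 487 to 569 in 2D and 460 to 506 in 3D for 8 fibroblast genes, and 524 to 572 against 506 to 580 for 7 leukocyte genes. For 6 endothelial genes it was 476 to 526 against 435 to 480. Of the genes in these 3 lists, COL1A2, SPI1, LYZ and PECAM1 were at or below background throughout. Above background on all 12 arrays were 3 fibroblast genes (COL3A1, PDGFRB and THY1), 4 leukocyte genes (PTPRC, CD3E, CD14 and ITGAM) and 4 endothelial genes (CDH5, VWF, KDR and EMCN), with group means of at most 7.28. Of these, CD14 rose by 0.43, and PTPRC, CD3E, ITGAM and KDR fell by 0.17 to 0.31. For 6 smooth muscle genes the sum was 662 to 751 in 2D and 4622 to 6038 in 3D. Of these, 3 were higher and 2 lower (83.3%, against 42.7% of all genes). ACTA2 was at least 20.9-fold higher, TAGLN was higher by 4.18 and SMTN by 0.62. MYH11 fell by 0.24 (limma adjusted p = 0.00443), CNN1 fell by 0.18 (0.0348) and DES did not pass. For 6 urothelial genes the sum was 1085 to 1170 against 1310 to 1501, with 2 higher and 1 lower (50%). UPK1B, which is not in that list, rose. The part of such cells in the tetraspanin differences was not tested.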

How the data were processed

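The deposited values are 1 linear intensity per probe set and array, made by the authors with GCRMA per the submitters' processing notes, version not given. Their background model and scaling are not stated in the sources used. Here log2(intensity + 1) was taken with no further normalization. The added 1, and any background signal left in the values, make a fold change understate that of dim genes. The 111 control probe sets were left out, which left 42924. Of these, 29254 named 1 gene in the platform annotation and were used for genes.

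Arrays were grouped by the labels and fitted with limma 3.58.1 (lmFit, eBayes, R 4.3.3), the group as the only term, two-sided, Benjamini-Hochberg adjusted at 0.05. The RNA control ratio, the background and the intensity levels were each compared with an exact permutation test over 924 assignments. Depth has no meaning for arrays, so their number limits the precision. The members, gene lists and alternatives were chosen with earlier results of these data known. Every tetraspanin may be named, with values by array for changes of at least 0.5 and for CD9, CD63, CD81, CD82 and CD151. Of other lists, up to 4 passing genes with the largest change are named, plus ADAM10, ITGA3, ITGA6, ITGB1, IGSF8, PTGFRN, SDCBP and HBEGF.

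The fit was checked on generated data with known changes, planted in 50 probe sets per size. It recovered 20% of changes of 0.25, 92% of 0.5 and 100% of 1 and of 2, with 4 false among 160 calls. Far fewer probe sets changed there than in these arrays, so the shares do not carry over directly. A gene that did not pass can still hold a small change. RefSeq symbols matched 30 of 30 members, used for names and neighbours only. Figures used matplotlib 3.10.9 (Python 3.11.15).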

Additional observations from a re-analysis of the deposited data

Results flagged for a closer look

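In 62 groups of 6 arrays, 1 array stood far from the other 5 in 9, by Dixon's criterion, which chance meets in about 1 in 20 groups. Of the tetraspanins, CD151 was high on 3D replicate 5, at 12.16 against 12.01 to 12.06 on the others. CD63 was low on 2D replicate 6, at 13.65 against 13.80 to 13.88. TSPAN15 was low on 2D replicate 1, at 6.105, and on 3D replicate 2, at 7.921. TSPAN17 was high on 2D replicate 6, at 9.931 against 9.132 to 9.277. TSPAN18, at background, was high on 2D replicate 3, at 5.676. TSPAN9 was low on 3D replicate 6, at 11.64 against 11.76 to 11.83. UPK1B was high on 2D replicate 2, at 9.971 against 9.397 to 9.563. The RNA control ratio was low on 3D replicate 2, at -0.884 against -0.546 to -0.399 on the other 3D arrays.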

How the results depend on the processing

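Under each of 26 other settings the 8 tetraspanins that changed by at least 0.5 kept their direction and passed the test. These settings include the main fit with a minimum change of 0.5, which keeps those 8 by construction. In the same way it removes every call with a smaller change, and it is counted among the settings that lost such a call. Of 1596 gene values compared, 1451 kept both direction and side of the threshold, 97 were no longer past it, 12 newly passed and 36 changed sign, 35 of those with neither value past the threshold. The count of genes lower in 3D, 6, became 3 with the RNA control ratio as a covariate and 2 with a minimum change of 0.5. The 17 probe sets higher became 8, 9 and 8 with the ratio, with the ratio over 5 control pairs and with the minimum change, and 10 without shared-probe suffixes, where fewer probe sets were counted. The 9 probe sets lower became 5 with the ratio and 3 with the minimum change. Leaving out 1 array gave 9 to 10 genes higher, 6 to 7 lower, 16 to 18 probe sets higher and 8 to 11 lower.

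Signs turned with quantile normalization for CD151 (-0.0124), TSPAN10 (0.0121), TSPAN12 (-0.0319), TSPAN17 (-0.0642) and TSPAN4 (-0.0469). They turned with median centring for TSPAN10 (0.0114) and TSPAN31 (0.00664), and with array weights for TSPAN31 (0.00214). With the ratio they turned for TSPAN10 (0.106), TSPAN12 (-0.0174), TSPAN2 (0.0286), TSPAN4 (-0.0863), TSPAN5 (0.0518) and TSPAN7 (0.00889). With the ratio over 5 pairs, chosen after seeing the data, they turned for TSPAN10 (0.0722), TSPAN12 (-0.00770), TSPAN2 (0.00403), TSPAN4 (-0.0606) and TSPAN5 (0.0285). Without both 2D replicate 6 and 3D replicate 2 they turned for TSPAN12 (-0.00235) and TSPAN31 (0.0132). With the mean of a gene's probe sets they turned for TSPAN13 (0.0376) and TSPAN31 (0.0259), and without shared-probe suffixes for TSPAN13 (0.21, on a probe set at background) and TSPAN31 (0.0691). Leaving out 1 array, or both of these, gave -0.0513 to 0.00557 for TSPAN10, -0.0113 to 0.0370 for TSPAN12, -0.0247 to 0.151 for TSPAN17, -0.0423 to 0.0132 for TSPAN31 and -0.0259 to 0.151 for TSPAN4. Beyond the settings' own construction, the cause was not tested.

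With the mean of a gene's probe sets, TSPAN9 was 0.65, CD9 0.21, CD82 -0.16 and PRPH2 -0.14. With single arrays left out, limma's test was newly passed by CD53 (without 2D replicate 4), TSPAN13 (2D replicate 5), TSPAN17 (2D replicate 6), UPK1A (2D replicate 6 or 3D replicate 1) and TSPAN7 (3D replicate 2). Deviations of same-numbered arrays correlated by 0.000836 to 0.360, above 0 for all 6 numbers and not over 0.1 for 3. A 3D array with the same number was the best match for 4 of 6 2D arrays, and the converse held for 1 of 6 3D arrays. The labels name no pairing by number, and the main fit used none. Whether arrays of the same number were handled together was not tested. With the replicate number as a block, 9 genes were higher and 7 lower, UPK1A at -0.14 being the added one. Arrays give no depth, and 12 tetraspanin probe sets were not above background on any array.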

Other observations

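On 3D replicate 2, the array with the lowest RNA control ratio of its group, tetraspanin probe sets were often the lowest of the 6 cyst arrays. This held for 20 of the 42 tetraspanin probe sets above background on all arrays (47.6%), beside 29.5% of all 27651 such probe sets. TSPAN14 and TSPAN15 were among them.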
